A study of Mus musculus with 8 samples.

Results

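H3K27ac peaks at the start of a single protein-coding gene were examined in wt P5424 cells, a mouse line that resembles T cell precursors. A wt peak was taken when at least 1 of its bases lay no more than 1 kb, up- or downstream, from the start of a protein-coding gene of RefSeq on GRCm38, and when this held for exactly 1 such gene. Of the 34553 wt peaks, 8787 (25.4%) met this rule, and they are called single-start peaks here. They lay at 7341 genes, 34.1% of the 21535 protein-coding genes with a start and a strand, and held 33.5% of the bases in wt peaks. A further 1432 peaks reached the starts of 2 or more genes (multi-start peaks), and 24334 reached none. The study removed IkE120, an enhancer upstream of *Ikzf1*, the gene of the lymphoid transcription factor Ikaros, to learn how the locus depends on it. H3K27ac chromatin immunoprecipitation with sequencing (ChIP-seq) covered wt cells and ΔIkE120 cells, in 1 library per genotype, with an input sample named in the methods. ΔIkE120 cells carry a homozygous deletion of IkE120 made with CRISPR/Cas9 and were grown as a clone by limiting dilution, so that differences of this clone from wt cells and effects of the deletion cannot be told apart. Whether the ChIP-seq cells were stimulated is not given in the sources used here. The lists hold called peaks and no read counts, so the depth is unknown. With no replicates, no difference between the lists could be set against a spread between libraries, and none was tested.

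H3K27ac, an acetylation of histone H3, marks active promoters and enhancers. At an active promoter the start of transcription itself is kept nearly free of nucleosomes, and acetylated nucleosomes flank this gap, with the first of them just inside the gene. Many promoters also give rise to a short-lived transcript on the other strand, so a promoter with a single annotated gene is one-way by its annotation and not always by its transcription.

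The label of a one-way promoter was met only for protein-coding genes. At 424 of the 7341 genes, the start of a long non-coding RNA (lncRNA) lay within 1 kb upstream on the other strand. The cell type was checked with marker genes. A wt peak lay within 1 kb of the start of 12 of 13 genes of T cell precursors, and the same number had a ΔIkE120 peak. *Il7r*, the interleukin receptor gene of early lymphocytes, had no peak in either list. *Cd3d* had a peak, but it reached 2 or more starts and was left out by the rule. Of the other lineages, 1 of 5 B lineage genes (*Ebf1*), 2 of 6 myeloid genes (*Mpo* and *Spi1*) and 1 of 3 erythroid genes (*Klf1*) had a wt peak, and 0 of 3 pluripotency genes did. Over all 21535 genes, 44.5% had a wt peak within 1 kb, so that these small counts alone do not set the other lineages apart. In ΔIkE120 cells the myeloid count was 1 of 6, since *Mpo* had no peak.

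Single-start peaks were longer than most peaks of the wt list. Their median length was 928 bp, with quartiles of 604 and 1266 bp, against 603 bp over all wt peaks, 488 bp away from starts and 1047 bp at multi-start peaks. The 5th and 95th percentiles were 289 and 1762 bp, and the longest peak spanned 3116 bp. A length of 2 kb or more was reached by 186 single-start peaks (2.12%), against 2.65% of multi-start peaks and 1.26% of all wt peaks. The ΔIkE120 list gave 8583 peaks by the same rule, with a median of 921 bp and quartiles of 608 and 1252 bp. The median lengths of the lists thus differed by less than 10 bp at these promoters. The peak caller ranked peaks at starts high. The median -log10 q was 10.8 at single-start peaks and 11.9 at multi-start peaks, against 4.12 over all wt peaks and 3.10 away from starts, and the median fold enrichment over background was 3.94 and 3.95, against 3.04 over all.

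Chromosomes differed less in length than the classes of peaks did. The median per chromosome lay between 781.5 bp on X and 1047 bp on chromosome 14 in wt cells, and between 771 bp and 1016 bp in ΔIkE120 cells, where X was again lowest. At the edge of the rule, the 125 peaks whose nearest base lay 901 to 1000 bases from the start had a median length of 570 bp, and 78.4% were overlapped by a ΔIkE120 peak. The 103 peaks at 1001 to 1100 bases, just outside, had 528 bp and 73.8%. Peaks near the limit of 1 kb thus resembled each other and were shorter than the other single-start peaks.

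The peaks were shifted into the gene. The shift was measured from the start to the peak's midpoint and counted as positive in the direction of transcription. Its median over the 8787 peaks was 245 bp (95% interval 236 to 254 bp, from order statistics), with quartiles of -19.5 and 449.75 bp. A midpoint downstream of the start was found for 6461 peaks, or 73.5% (exact binomial interval 72.6% to 74.4%). These intervals cover counting error only and say nothing of the spread between cell preparations or of the choice of start. Taking the outermost end of a gene as its start places peaks of inner starts downstream by construction, and the nearest start of a transcript table gave 133.25 bp, as described below. The median peak reached from 269 bp upstream to 728 bp downstream of the start.

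The direction followed the strand of the gene and not the direction of the chromosome. Genes on the plus strand had a median shift of 250 bp (73.5% downstream), and genes on the minus strand 240 bp (73.5% downstream). Chromosome medians ranged from 218 to 285.75 bp, and the share downstream from 68.6% to 79.0%, so that all 20 chromosomes with such peaks gave the same direction. The ΔIkE120 list, which the choice of peaks did not use, gave a median shift of 258.5 bp (250 to 265 bp) over its own 8583 peaks, with 75.5% downstream. Its shift was positive on every one of the same chromosomes, from 217.5 to 329.5 bp.

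Not every peak covered the start. The start itself lay inside 4803 peaks (54.7%), while 2559 (29.1%) lay wholly downstream and 1425 (16.2%) wholly upstream. Peaks that covered the start had a median length of 1141 bp and a shift of 194 bp, and 81.2% of their midpoints were downstream. Peaks wholly downstream had a median length of 767 bp and began 101 bp inside the gene, by the median. Those wholly upstream were the shortest, at 458 bp, and ended 239 bp before the start. In the ΔIkE120 list the shares were 54.8%, 29.9% and 15.2% in the same order.

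Called peaks were counted at fixed distances from the start over the 7341 genes to show where they left a gap. At the start, 65.6% of the genes were covered by a wt peak. The share rose to 88.2% at 300 bp downstream and fell to 28.9% at 1000 bp. Upstream it was 51.2% at 100 bp, 51.4% at 300 bp and 7.81% at 1000 bp. The downstream side was thus covered at more genes than the upstream side at each of these distances. ΔIkE120 peaks followed the same course, with 63.9% at the start, 86.9% at 300 bp downstream and 48.3% at 300 bp upstream. At the 2232 genes reached by multi-start peaks alone, wt peaks covered 77.7% at 300 bp upstream, 68.4% at 100 bp upstream, 72.6% at the start and 86.5% at 300 bp downstream, so that both sides were covered and the lowest of these 4 shares lay just before the start.

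The shortest peaks differed from the others in place. When the peaks were ordered by length and divided into 5 equal groups, the shortest, from 215 to 530 bp, had a median shift of -153 bp, and 47.1% of their midpoints were downstream. The next group, up to 806 bp, had a shift of 311.5 bp and 75.9% downstream. In the middle group, up to 1056 bp, the values were 375 bp and 83.0%. They were 218 bp and 82.6% in the next, up to 1346 bp, and 243.75 bp and 79.1% in the longest, so that beyond the shortest group the shift did not rise steadily with length. The shortest peaks were thus placed on both sides, and 13.3% of them covered the start, against 82.5% of the longest. In the ΔIkE120 list the shortest group had a shift of -148.5 bp and the longest 268.5 bp.

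At many promoters the signal was called in pieces. Of the 7341 genes, 5942 had 1 single-start peak, 1352 had 2 and 47 had 3. Genes with 1 peak had a median length of 1094.5 bp, and 83.1% of those peaks had their midpoint downstream. At the 1352 genes with 2 peaks, the upstream piece had a median of 477.5 bp and the downstream piece 774.5 bp, and the latter was longer at 1007 genes (74.5%). The gap between the pieces had a median of 256.5 bp, with quartiles of 205 and 337.25 bp, and its midpoint lay at -81.5 bp from the start by the median. No neighbouring peaks of the wt list lay closer than 161 bp, so that smaller gaps were not seen. The start lay inside the gap at 758 of these genes (56.1%). The pieces also differed in rank, with a median -log10 q of 5.58 upstream and 11.2 downstream. Where the start lay inside the gap, such a pair of peaks has the form of the nucleosome-depleted gap described above, but nucleosomes were not measured here.

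The same was seen in ΔIkE120 cells. There, 1281 genes had 2 peaks, with medians of 458 bp upstream and 768 bp downstream, and the gap of 250 bp was again centred at -81.5 bp. At 229 of the 1352 wt pairs (16.9%), 1 ΔIkE120 peak overlapped both pieces. In the other direction, 257 of the 1281 ΔIkE120 pairs (20.1%) were bridged by 1 wt peak. Bridging thus occurred both ways. The upstream wt piece was overlapped by a ΔIkE120 peak at 1166 genes (86.2%) and the downstream piece at 1301 (96.2%).

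Among the genes with 3 peaks were *Myc*, *Cd3e*, *Cd8b1* and *Kat7*, named here after their values were seen. *Myc*, a driver of growth and proliferation, had wt pieces of 349, 528 and 1449 bp with the start in the gap between the last 2, and the ΔIkE120 peaks that overlapped them measured 593, 670 and 1436 bp. At *Cd3e*, a subunit of the T cell receptor complex, the wt pieces measured 431, 1200 and 271 bp in the direction of transcription and the ΔIkE120 peaks 342, 1206 and 412 bp. The large middle piece of *Cd3e* covered its start. *Kat7*, a histone acetyltransferase gene, had wt pieces of 523, 537 and 300 bp, of which the middle one had the highest -log10 q of the trio, 60.8. Its ΔIkE120 partners measured 595 and 561 bp, and the piece farthest inside the gene had none.

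An upstream lncRNA went with a smaller shift. The 552 peaks at the 424 genes with such a start had a median shift of 116.75 bp, and 62.3% were downstream, against 253 bp and 74.3% for the 8235 peaks at other genes. Their upstream edge lay at -466 bp by the median, against -255 bp, whereas the downstream edges lay at 638 and 734 bp. The lengths were close, at 920.5 bp with an upstream lncRNA and 928 bp without. The part that transcription of these lncRNAs has in the shift was not tested.

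The size of the shift depended on the start that was taken for a gene. The gene table gives the outer ends of a gene, and the outermost end on the upstream side was used. Among the 3893 peaks whose outermost end is also a transcript start in the RefSeq promoter table, the median shift was 191 bp, and 69.8% were downstream. When all starts of that table were used and the one nearest to the midpoint was taken, which favours small shifts, 9827 peaks met the rule and the median was 170 bp, with 68.1% downstream. For the 7104 single-start peaks whose gene is in that table, the median was 242.5 bp from the outermost start and 133.25 bp from the nearest start of the table, with 73.4% and 64.4% downstream. These settings were chosen after the data were seen. The direction was the same under each, and the size of the shift depends on the start taken, from 133.25 to 245 bp.

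The longest peaks lay at genes of several kinds, and T cell genes were among them. The 20 longest, from 2478 to 3116 bp, are described in order. The longest spanned chr15:97728962-97732077 at *Endou*, a gene for a poly(U)-specific endoribonuclease, and reached from 672 bp upstream to 2443 bp downstream. In ΔIkE120 cells its place was taken by peaks of 715 and 2205 bp, which together made 0.937 of the wt length. *Slc16a5*, of the monocarboxylate transporter family, followed with 3038 bp at chr11:115462055-115465092. It too was split in ΔIkE120 cells, into 649 and 2095 bp, a ratio of 0.903. *Satb1*, a chromatin organizer of thymocytes, had 3002 bp in wt at chr17:51831240-51834241 and 2574 bp in ΔIkE120 cells (ratio 0.857). At *Gata3*, a master regulator of the T lineage, the 2967 bp at chr2:9887079-9890045 extended upstream, from -2092 to 874 bp. ΔIkE120 cells had peaks of 1384 and 846 bp there, with 0.752 of the wt length between them. The ΔIkE120 pieces at *Endou* spanned -655 to 2441 bp, so that most of the missing bases lay inside the wt peak, whereas at *Gata3* the span of -2115 to 640 bp was also shorter on the downstream side.

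The next longest peaks were kept whole more often. *Wasf2*, an actin regulator, had 2902 bp in wt and 3001 bp in ΔIkE120 cells. *Smad3*, a transducer of TGF-β signals, had 2743 and 2945 bp, and *Tnpo2*, a nuclear import receptor, 2730 and 2742 bp. These 3 were longer in ΔIkE120 cells, by ratios of 1.03, 1.07 and 1.00. At *H1f2*, a linker histone gene, 2721 bp in wt corresponded to 1389 and 774 bp in ΔIkE120 cells, a ratio of 0.795. *Ints1*, which encodes a subunit of the Integrator complex, had 2656 bp in wt and pieces of 1968 and 499 bp in ΔIkE120 cells (ratio 0.929).

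Of the remaining genes among the 20, *Tor4a*, *Fbrs* and *Cdk6* had ratios of 1.03, 1.03 and 1.02. *Cdk6* encodes a kinase that drives entry into the cell cycle, and its wt peak of 2489 bp began 113 bp inside the gene. Ratios from 0.945 to 0.983 were found at *Tuba1b* (an α-tubulin), *Sp3* (a factor that binds GC boxes), *Sf3b4* (a spliceosome subunit) and *Lat* (an adaptor of the T cell receptor). *Lat* measured 2478 bp in wt and 2356 bp in ΔIkE120 cells. Lower values were found at *Nrros* (0.831), at *Slc9a9*, an endosomal sodium/proton exchanger (0.858), at *Kcna3*, a potassium channel of lymphocytes (0.873), and at *Edem3*, of the glycoprotein degradation pathway (0.768), whose 2571 bp were split into 1147 and 827 bp. All 20 longest peaks were overlapped by a ΔIkE120 peak, as were all 1752 peaks in the longest of the 5 groups by length.

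Among peaks covering the start, those that extended farthest downstream were at *Slc16a5* (2687 bp), *Endou* (2443 bp), *Tgfb1* (2395 bp), *Traf4* (2372 bp) and *Kmt2e* (2337 bp). The last 3 began within 39 bp of the start and lay nearly whole inside the gene. *Tgfb1*, which encodes a cytokine, had 2401 bp in wt and ΔIkE120 peaks of 1386 and 421 bp. *Kmt2e* had 2377 bp in wt and 2368 bp in ΔIkE120 cells. Farthest upstream among peaks covering the start were *Ints1* (-2128 bp), *Gata3* (-2092 bp), *Sf3b4* (-1909 bp), *Cisd3* (-1783 bp) and *Smad3* (-1775 bp). *Cisd3*, a mitochondrial iron-sulfur protein gene, had the lowest ratio of these, 0.594, with 2283 bp in wt and ΔIkE120 peaks of 582 and 773 bp.

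A ΔIkE120 peak overlapped 8331 of the 8787 single-start peaks by at least 1 base, or 94.8% (94.3% to 95.3%). The same held for 74.4% of all wt peaks, for 97.6% of the multi-start peaks and for 65.7% of the peaks away from starts. By bases, 88.2% of the length of single-start peaks lay in ΔIkE120 peaks, against 73.5% of all wt peak bases. Of the 8583 ΔIkE120 single-start peaks, 97.3% met a wt peak in turn, against 86.4% of all ΔIkE120 peaks. The rank of a peak moved with its overlap, and single-start peaks ranked higher than most. Among single-start peaks with a -log10 q from 2 to 4, 74.1% were overlapped, and away from starts 58.5%. From 4 to 8 the shares were 96.3% and 92.4%, and from 8 to 16 they were 99.9% and 99.7%. At equal rank the gap between these classes was thus narrower than over the whole lists.

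The length ratio compares the summed length of the ΔIkE120 peaks that overlap a wt peak with its own length. Its median over the 8331 overlapped peaks was 0.991, with quartiles of 0.889 and 1.11, against 0.974 over all overlapped wt peaks. ΔIkE120 length was under 1/1.5 of wt at 391 peaks (4.69%), where the share over all overlapped wt peaks was 12.1%. It was over 1.5 times wt at 714 (8.57%), against 11.9% over all. Taken from the ΔIkE120 list, the ratio of wt to ΔIkE120 length at single-start peaks had a median of 1.02, so that wt peaks were a little longer from that side too. Short wt peaks had high ratios and long ones low ratios, with medians of 1.20 under 400 bp and 0.955 from 1600 bp. Choosing a peak by its wt length favours such a slope, and the ratios of the longest and shortest peaks are descriptions only.

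Most of the large increases were pieces joined in ΔIkE120 cells. Of the 714 peaks with a ratio over 1.5, 481 (67.4%) shared their ΔIkE120 partner with another wt peak. Among all overlapped single-start peaks, 555 (6.66%) did so. Sharing raises the ratio by construction, since the whole partner is set against each wt piece. When all peaks of both lists that overlap each other were taken as groups and summed, a setting chosen after the data were seen, 8081 groups held a single-start peak. Their median ratio was 0.984. A ratio over 1.5 was then left at 250 groups (3.09%), and a ratio under 1/1.5 at 391 (4.84%). Over all 24726 groups these shares were 5.83% and 12.7%.

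The edges of matched peaks moved little. For 7476 single-start peaks with 1 ΔIkE120 partner that met no other wt peak, the upstream edge in ΔIkE120 cells lay 8 bp farther downstream by the median (quartiles -32 and 56 bp). The downstream edge lay at -1 bp relative to wt (quartiles -61 and 56 bp). The median ratio was 0.984, and 4113 of these peaks (55.0%) were longer in wt. The fold enrichment of the ΔIkE120 peak was 1.03 times that of the wt peak by the median, although each value belongs to its own library and background. The ratio of fold enrichment was 1.03 at single-start peaks, at multi-start peaks and at peaks away from starts alike.

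No ΔIkE120 peak overlapped 456 single-start peaks, which lay at 442 genes. As given above, 94.8% of single-start peaks were overlapped, and 74.4% of all wt peaks. The 456 were short and ranked low, with a median of 308 bp and a -log10 q of 2.64, against 957 bp and 11.2 for overlapped peaks. Their share was 17.6% of the peaks wholly upstream, 5.78% of those wholly downstream and 1.19% of those that covered the start. For 252 of the 456 (55.3%), the gene still had a ΔIkE120 peak within 1 kb of its start. A gene with a single-start peak and no ΔIkE120 peak within 1 kb was found 215 times, 2.93% of the 7341 genes. Conversely, 233 of the 8583 ΔIkE120 single-start peaks (2.71%) met no wt peak, where 86.4% of all ΔIkE120 peaks met one. A ΔIkE120 single-start peak but no wt peak within 1 kb was found at 101 genes.

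The highest ranked of these peaks was at *Mblac1*, which encodes a protein with a metallo-β-lactamase fold. It spanned 1125 bp at chr5:138193730-138194854, covered the start and had a -log10 q of 14.7 in wt. The nearest ΔIkE120 peak lay 5796 bp away. All 4 other wt peaks within 50 kb were overlapped in ΔIkE120 cells, as were 74.4% of all wt peaks. *Mblac1* was thus a loss of a long and high-ranking peak between kept neighbours. *Gbp4*, an interferon-induced GTPase gene, had a wt peak of 343 bp (-log10 q of 8.74), the nearest ΔIkE120 peak was 5919 bp away, and 3 of 4 neighbouring wt peaks were overlapped. *Gsdmd*, the gene of a pore-forming protein of inflammatory cell death, had 718 bp in wt at a -log10 q of 6.97, with the nearest ΔIkE120 peak at 19539 bp and 2 of 2 neighbours overlapped.

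At other genes fewer of the neighbours were overlapped, or there were none. Over all wt peaks 74.4% were overlapped, and the neighbours of a gene are too few to be set against that share. *Blk*, a kinase gene of B cells, had 1040 bp in wt (-log10 q of 7.27), and 2 of 7 wt peaks within 50 kb were overlapped. *Dusp23*, a phosphatase gene, had 811 bp (7.21) and 0 other wt peaks within 50 kb, and the nearest ΔIkE120 peak lay 111496 bp away. At *Padi3*, a peptidylarginine deiminase gene, the wt peak measured 265 bp, and its 1 neighbour was not overlapped. *Gimap1*, a GTPase gene of lymphocytes, had 394 bp, and 2 of 4 neighbours were overlapped.

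At the other 3 of the 10 named losses the gene kept a peak. *Faim*, an inhibitor of apoptosis, had a wt piece of 418 bp upstream of the start with a -log10 q of 11.4, and another wt piece of 592 bp just inside the gene, which a ΔIkE120 peak of 466 bp overlapped. The arginine methyltransferase gene *Prmt5* lost an upstream piece of 727 bp, while its piece of 750 bp had a ΔIkE120 partner of 733 bp. *Gm10509* lost 326 bp upstream, and its other piece of 339 bp had a partner of 333 bp. These 3 losses were of an upstream piece.

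The upper part of the single-start peaks, from their median -log10 q of 10.8, had its lowest ratio at *Trib3*, a stress-induced pseudokinase gene. It had 1411 bp in wt at chr2:152343184-152344594 and 488 bp in ΔIkE120 cells, a ratio of 0.346, and -log10 q values of 11.2 and 7.23. *Plekha5* had 1236 and 624 bp (0.505), and *Dyrk1b*, a kinase gene, 1149 and 612 bp (0.533). *Chac1*, whose enzyme breaks down glutathione under endoplasmic reticulum stress, had 1730 bp in wt against pieces of 577 and 371 bp (0.548). *Bub1*, a kinase of the spindle checkpoint, had 873 and 479 bp (0.549). A shorter peak did not always have the lower score. At *Bub1* and *Plekha5* the -log10 q was higher in ΔIkE120 cells, at 21.6 against 14.9 and 14.1 against 11.1. The fold enrichment of the ΔIkE120 peak was above that of the wt peak at all 5 genes, for *Chac1* in the stronger of its pieces. Each score belongs to a whole called peak, so that scores of calls of unlike length do not compare the signal of the same bases. Whether acetylation differed was not tested.

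The highest ratios among peaks of the same upper part, from a -log10 q of 10.8, came from joined pieces. *Patz1*, a zinc finger repressor gene, had a ratio of 6.55, from a wt peak of 465 bp overlapped by a ΔIkE120 peak of 3048 bp. That ΔIkE120 peak also overlapped another wt peak, and the group held 2954 bp in wt, a ratio of 1.03. At *Sart1*, a splicing factor gene, the ratio was 4.81 and that of the group 1.06. At *Tnrc6b*, which acts in silencing by microRNAs, the values were 4.73 and 1.26. At *Eif4e*, the cap-binding translation factor gene, they were 3.90 and 1.37, and at *Gtdc1* 3.88 and 1.24. Each of the 5 groups held 2 wt peaks and 1 ΔIkE120 peak.

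Genes of the T lineage had both long and short peaks. Of 20 T lineage transcription factor genes, 16 had a single-start peak, against 34.1% of all genes, and their 19 peaks had a median length of 1387 bp, against 928 bp over all single-start peaks. Of these, 18 were overlapped by a ΔIkE120 peak, with a median ratio of 0.945 against 0.991 over all. Single-start peaks from 1347 bp upward, the longest of the 5 groups by length, had 0.962. Among the short peaks of the list were both pieces of *Tcf7*, a mediator of T lineage commitment. They had 443 and 337 bp in wt and 531 and 383 bp in ΔIkE120 cells. *Runx1* had 2265 bp in wt and 2071 bp in ΔIkE120 cells, and *Myb* 2224 and 1887 bp. *Lef1*, an effector of Wnt signalling, had 1734 and 1742 bp. *Tcf3*, an E protein gene, also had a ratio above 1, with 1369 and 1465 bp. *Tox*, which acts in thymocyte maturation, had a wt peak of 367 bp with no ΔIkE120 overlap. Of the 18 ratios, 0 were under 1/1.5 and 1 was over 1.5, at *Runx3* with 328 and 587 bp, where the shares over all single-start peaks were 4.69% and 8.57%. A piece of *Notch1* (0.670) and the peak of *Notch3* (0.675) lay close to the lower limit. The other piece of *Notch1* had 811 bp in wt and 1170 bp in ΔIkE120 cells (1.44). With peaks less than 500 bases apart joined, *Notch1* had a ratio of 1.19.

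Of 27 genes of the T cell receptor and its proximal signalling, 24 had a single-start peak, against 34.1% of all genes. Their 30 peaks had a median of 1273.5 bp, 29 were overlapped, close to the 94.8% over all single-start peaks, and the median ratio was 0.965. *Lck*, the kinase that starts receptor signalling, had 1679 bp in wt and 1762 bp in ΔIkE120 cells. *Zap70* had 1138 and 987 bp, and *Cd4* 1960 and 2086 bp. *Ptcra*, which encodes the pre-T cell receptor α chain, had 1557 and 1929 bp. The lowest ratio was at *Rag2*, a recombinase gene, with 1703 bp in wt and 687 bp in ΔIkE120 cells (0.403), the only peak of this list under 1/1.5. The shorter ΔIkE120 peak of *Rag2* had the higher -log10 q, 8.96 against 4.56, and the higher fold enrichment, 3.03 against 2.54. These scores belong to calls of unlike length and do not show that acetylation was stronger in ΔIkE120 cells. *Rag1*, its partner in recombination, had 1082 and 1161 bp. A ratio over 1.5 was found for 4 peaks, at *Cd8b1*, *Cd3e* and *Cd3g*, and for 8.57% over all. At *Cd8b1*, wt pieces of 459 and 464 bp were both overlapped by 1 ΔIkE120 peak of 1074 bp, a ratio of 1.16 for the group. With peaks less than 500 bases apart joined, the ratios were 0.950 at these pieces of *Cd8b1*, 1.39 at *Cd3e* and 1.11 at *Cd3g*.

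Immediate early genes, which respond to stimulation within minutes to hours, had a single-start peak at 11 of 22 genes, against 34.1% of all genes. Their 14 peaks had a median of 1393.5 bp, against 928 bp over all single-start peaks. Of these, 13 were overlapped, near the 94.8% over all, and the median ratio was 0.991 in the list and over all. *Junb* had 1507 bp in wt and 1551 bp in ΔIkE120 cells, *Btg2* 1698 and 1603 bp, and *Ier5* 1756 and 1559 bp. *Egr1*, a zinc finger factor, had a short peak in both lists, at 272 and 211 bp. *Fosb* had 215 bp in wt and no ΔIkE120 overlap. Both of these ranked low for single-start peaks, with a -log10 q of 4.32 and 1.42.

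Genes that write, erase or read acetylation had a single-start peak at 17 of 22, against 34.1% of all genes, with a median of 1176 bp over 21 peaks and 20 overlapped (94.8% over all single-start peaks). The acetyltransferase genes *Ep300* and *Crebbp*, which deposit H3K27ac, had 1474 and 1418 bp in wt and 1398 and 1503 bp in ΔIkE120 cells. The deacetylase genes *Hdac1* and *Hdac7* each had a pair of wt pieces joined in ΔIkE120 cells. At *Hdac1*, pieces of 714 and 464 bp corresponded to 1 peak of 1559 bp, and at *Hdac7* 1234 and 970 bp to 2281 bp, ratios of 1.32 and 1.03 for the groups. These 4 pieces were the peaks of the list with a ratio over 1.5, where the share over all single-start peaks was 8.57%.

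Cell cycle and replication genes had a single-start peak at 19 of 25, with a median of 1265 bp over 22 peaks, where all genes had 34.1% and 928 bp. All 22 were overlapped, against 94.8% of all single-start peaks, and their median ratio was 0.978, against 0.991. Single-start peaks from 1057 to 1346 bp had 0.973. A ratio past 1.5 in either direction was found for 0 of the 22, which is too few peaks to set against shares of 4.69% and 8.57% over all. *Ccne2*, a cyclin gene, had 2407 bp in wt and 2485 bp in ΔIkE120 cells, and *Cdkn2c*, a cell cycle inhibitor gene, 2337 and 2365 bp. *Cdk1*, the mitotic kinase gene, had 1279 and 1234 bp.

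Housekeeping lists, and zinc finger genes by name, were examined in the same way. Ribosomal protein genes had a single-start peak at 57 of 81, with a median of 1081.5 bp over 72 peaks, a shift of 373.75 bp and 70 overlapped (median ratio 0.996). *Rpl30* had the longest, 2147 bp in wt and 2303 bp in ΔIkE120 cells. Respiratory chain genes had one at 44 of 84, with a median of 920 bp over 52 peaks, a shift of 167.75 bp and 50 overlapped (0.963). A further 31 respiratory chain genes were reached by multi-start peaks alone, against 17 ribosomal protein genes. Zinc finger genes named Zfp had one at 185 of 367, with a median of 936 bp over 207 peaks and 195 overlapped (0.981). Over all genes, the share with a single-start peak was 34.1%, the median shift 245 bp and the share overlapped 94.8%.

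A single-start peak was found at 3 of 10 B lineage genes (*Blk*, *Ebf1* and *Igll1*), and 1 of these 3 peaks was overlapped in ΔIkE120 cells, against 94.8% of all single-start peaks. *Ebf1*, a B lineage factor, had 758 bp in wt, wholly upstream of its start, and 253 bp in ΔIkE120 cells. Myeloid genes had one at 2 of 10, with *Spi1* at 1191 and 927 bp and *Mpo* at 626 bp in wt without an overlap. Erythroid genes had one at 2 of 7. *Klf1*, a factor of red cell precursors, had 2315 bp in wt and 2327 bp in ΔIkE120 cells, but this peak began 618 bp downstream of the start. *Epor*, the erythropoietin receptor gene, had 1283 and 1247 bp. Pluripotency genes had 0 of 7, and olfactory receptors 9 of 1104. Over all protein-coding genes the share was 34.1%, and the B lineage, myeloid and erythroid lists are too small to be told from it.

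At the *Ikzf1* locus, the single-start peak of *Ikzf1* spanned chr11:11684818-11687149. It began 144 bp upstream of the start and lay mostly within the gene, with a shift of 1021.5 bp. Of the neighbours, *Fignl1*, a gene of DNA repair, had a single-start peak of 1820 bp in wt and 1766 bp in ΔIkE120 cells (ratio 0.970), centred -14.5 bp from its start. *Ikzf1* itself had 2332 bp in wt and 2125 bp in ΔIkE120 cells. Its ratio of 0.911 lay below the median of single-start peaks and above their lower quartile of 0.889. Long wt peaks had lower ratios in general, with a median of 0.962 in the longest of the 5 groups by length. The fold enrichment at *Ikzf1* was 2.18 in wt and 2.45 in ΔIkE120 cells, each from its own library and background. *Zpbp*, *Spata48*, *Ddc*, *Grb10* and *Cobl* had no wt peak within 1 kb of the start. At *Spata48* this rests on the limit, since the nearest wt peak ended just outside it. For *Zpbp*, the study compared signal tracks and reported that H3K27ac at the promoter was unaffected by the deletion. A missing peak call is a different measure and does not bear on that signal. Of the other Ikaros family genes, *Ikzf3* had peaks of 1387 and 1532 bp and *Ikzf2* of 1055 and 809 bp, in wt and ΔIkE120 cells.

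The promoters were also compared by sequence, in the 300 bases from 250 before to 50 after a transcript start of the RefSeq promoter table for GRCm38.p6. The table held a start within 1 kb of the start used for 15752 genes, among them 5625 of the 7341 genes with a single-start peak. CpG dinucleotides are rare in most of the genome and kept in many promoters. The median ratio of observed to expected CpG was 0.792 at genes with a single-start peak, 0.848 at genes with multi-start peaks alone and 0.255 at genes with no wt peak. A ratio of at least 0.6 marked 7707 promoters, of which 57.5% had a single-start peak, against 14.9% of the 8045 others. Peaks at CpG-poor promoters had a median of 844.5 bp, and 89.6% were overlapped by a ΔIkE120 peak, against 945.5 bp and 96.4% at CpG-rich ones. The shift was 249.5 bp and 231.75 bp in the same order. Over 142 promoters of genes with a single-start peak but no ΔIkE120 peak within 1 kb, the median CpG ratio was 0.367.

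Short motifs known from promoters were searched on both strands in the same windows. They were TATAAA (the TATA box), GGGCGG (the GC box bound by Sp factors), CCAAT (bound by NF-Y), CCGGAAG (bound by ETS factors), GCGCATGC (bound by NRF1) and TGTGGT (bound by Runx factors). GGGCGG was found at 69.7% of the genes with a single-start peak and 46.7% of all promoters, and CCGGAAG at 19.7% and 12.0%. TATAAA was found at 6.65% and 13.7%, GCGCATGC at 6.95% and 3.73%, CCAAT at 40.7% and 39.4%, and TGTGGT at 12.5% and 15.0%. Within CpG-rich promoters, GGGCGG was at 76.6% of those with a single-start peak and 74.3% of all, and CCGGAAG at 21.8% and 20.1%, so that these gaps were narrower there than over all promoters. TATAAA was at 5.85% and 5.93%, and GCGCATGC at 8.02% and 6.64%. CCAAT was at 40.6% and 38.4%, a wider gap than over all promoters, and for TGTGGT the direction turned, with 10.6% and 9.58%. Within CpG-poor promoters, GGGCGG was at 43.9% and 20.3%, CCGGAAG at 11.9% and 4.34%, TATAAA at 9.61% and 21.1%, GCGCATGC at 3.01% and 0.945%, CCAAT at 40.9% and 40.4%, and TGTGGT at 19.5% and 20.3%. Matches of different motifs shared a base at 154 promoters (0.978%), most often CCAAT with GGGCGG at 74. Of the 482 peaks at promoters with GCGCATGC, 0.207% reached 2 kb, against 2.06% of the 6264 at those without it. The peaks of this length with GCGCATGC are too few to be set against that share, and the median lengths were close, at 900.5 and 930 bp. For TATAAA, 0.911% of 439 peaks with it reached 2 kb and 2.00% of 6307 without it, again with few such peaks at promoters that hold the motif. With CCAAT the median was 853 bp and without it 979 bp.

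Promoter sequences are printed for *Satb1*, which had the longest but 2 of the peaks, for *Mblac1* and *Faim*, the highest ranked without a ΔIkE120 overlap, and for *Ikzf1*, whose enhancer was deleted. They are the 250 bases before the transcript start, 5′ to 3′ on the strand of the gene, from RefSeq on GRCm38.p6, with matches of the 6 motifs on either strand in capitals. *Satb1* is at chr17:51833291-51833540 on the minus strand, *Mblac1* at chr5:138194064-138194313 on the plus strand, *Faim* at chr9:98986123-98986372 on the plus strand, and *Ikzf1* at chr11:11685675-11685924 on the plus strand.
Satb1: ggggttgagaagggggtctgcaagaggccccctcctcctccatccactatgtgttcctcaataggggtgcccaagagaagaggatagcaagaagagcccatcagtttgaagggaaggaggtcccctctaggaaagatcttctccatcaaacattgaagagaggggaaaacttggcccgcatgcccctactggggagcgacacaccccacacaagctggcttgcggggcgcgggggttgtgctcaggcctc
Mblac1: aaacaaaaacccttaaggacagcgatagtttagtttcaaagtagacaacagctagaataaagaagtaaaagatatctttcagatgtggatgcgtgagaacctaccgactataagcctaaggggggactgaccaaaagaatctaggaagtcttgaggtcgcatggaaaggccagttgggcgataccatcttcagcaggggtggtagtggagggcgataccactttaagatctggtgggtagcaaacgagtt
Faim: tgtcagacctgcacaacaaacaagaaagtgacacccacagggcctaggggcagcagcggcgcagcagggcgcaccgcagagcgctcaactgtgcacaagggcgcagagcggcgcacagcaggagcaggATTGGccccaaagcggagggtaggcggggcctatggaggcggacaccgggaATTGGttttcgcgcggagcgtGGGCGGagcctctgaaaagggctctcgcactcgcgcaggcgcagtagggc
Ikzf1: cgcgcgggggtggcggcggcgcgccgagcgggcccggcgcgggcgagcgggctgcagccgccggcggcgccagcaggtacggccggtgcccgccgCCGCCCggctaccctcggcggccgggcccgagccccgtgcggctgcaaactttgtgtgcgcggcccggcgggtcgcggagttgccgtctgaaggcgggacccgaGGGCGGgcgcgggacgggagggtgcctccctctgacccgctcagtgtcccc
The sequences before *Satb1* and *Mblac1* held 0 of the motifs, with 5 and 7 CpG and 58.0% and 44.8% G or C. *Faim* held GGGCGG at -50, counted from the transcript start to the leftmost letter of the match, and CCAAT on the other strand, printed as ATTGG, at -122 and -71. It had 21 CpG and 66.0% G or C. The upstream piece lost in ΔIkE120 cells overlapped the far end of this stretch only. That piece ended at -160 bp, upstream of all these matches. The printed *Ikzf1* start lies 963 bp inside the gene from the outermost start used above, near the middle of its H3K27ac peak. It held GGGCGG at -51 and, on the other strand as CCGCCC, at -155, with 44 CpG and 82.0% G or C. A match of letters is not evidence that a factor binds there, and binding was not measured.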

How the data were processed

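H3K27ac ChIP-seq of wt and ΔIkE120 P5424 cells was analysed from the peak lists that the authors deposited, 1 library per genotype. The authors' processing notes name Bowtie2 2.3.4.3, Bowtie 1.0.0, deepTools 3.2.1 and MACS2 2.1.1 and the build GRCm38, and their methods name an input sample. The score of each peak was deposited as given by the peak caller and equals its -log10 q times 10, cut to a whole number. The fold enrichment, a ratio of the peak's signal to the caller's background, was computed by the authors with the peak caller and used as deposited. The -log10 p and -log10 q values were likewise made by the authors' peak calling within each library and used as deposited. The settings of the caller and the sequencing depth are not stated.

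Coordinates were read as BED intervals. A gene's start was its outermost end on the upstream side in the RefSeq table for GRCm38. Its strand came from the RefSeq promoter table by gene identifier (17492 genes) or from GENCODE M1 by symbol (4043), and 352 genes without a strand were left out. The length ratio sums all ΔIkE120 peaks that share at least 1 base with a wt peak. Intervals of percentages are exact binomial, and those of medians come from order statistics. All of them, the overlap shares included, cover counting error only and not the spread between libraries. Genes were named by a rule. They were those of the 20 longest peaks and of the 10 highest ranked without a ΔIkE120 overlap. The 5 lowest and 5 highest ratios were taken from the median -log10 q upward. Among peaks covering the start, the 5 reaching farthest on each side were taken. Lists of genes by known function and *Ikzf1* with its neighbours were added. Members and lists were chosen with earlier results of these data known. The steps were run with Python 3.11.15, numpy 2.4.6, pandas 2.3.3, scipy 1.17.1 and networkx 3.6.1 and checked on simulated data. Chromosome conformation (4C) files of the series hold reads per fragment of chromosome 11 and were not used.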

Additional observations from a re-analysis of the deposited data

How the results depend on the processing

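The 6 values summed up here (the number of single-start peaks and their median length, median shift, share downstream, share overlapped and median length ratio) were recomputed under 56 alternatives. Of these, 27 stayed within the interval of the value (for the number of peaks, within 1.5 times), 29 did not, and in 0 of them the direction changed. The number of peaks ranged from 7405 to 9827. The cause of a move was not tested unless the setting itself gives it.

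The median length was 906 bp with a reach of 2 kb, 890 bp with the starts of all annotated genes, 1008 bp for peaks from the median -log10 q of each list upward, and 1190 bp when peaks less than 500 bases apart were joined, which lengthens peaks by construction. The median shift was 233.5 bp with a reach of 500 bases, 262.5 bp with 2 kb, 231.5 bp when at least 50% of a peak had to lie in the window, 267.25 bp from the median -log10 q upward, 225.5 bp with joined peaks, 234.5 bp with all annotated genes and 194 bp for peaks covering the start. The share downstream was 77.7% from the median -log10 q upward, 78.9% with joined peaks, 71.3% with all annotated genes and 81.2% for peaks covering the start. Starts of the promoter table gave 170 bp and 68.1%, and peaks whose outermost start is in that table gave 191 bp and 69.8%. These settings of the start, and the groups of overlapping peaks (median ratio 0.984), were chosen after seeing the data.

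The share overlapped was 95.7% with a reach of 500 bases, 93.4% with 2 kb, 93.6% from the median -log10 q upward, 95.9% with the 29902 top peaks of each list, 96.9% with joined peaks, 92.5% with all annotated genes and 92.8% when at least 50% of the wt peak had to be covered. The median ratio was 0.985 with joined peaks and 0.940 when only ΔIkE120 bases inside the wt peak were counted, which cannot exceed 1 by construction. Of 257 ratios of named genes, 9 that were over 1.5 fell below 1 when peaks less than 500 bases apart were joined: *Patz1* (0.952), *Sart1* (0.982), both downstream pieces of *Cd8b1* (0.950), both pieces of *Hdac7* (0.943), both of *Rpl34* (0.956) and *Rpl22* (0.914). A further 28 alternatives moved a ratio by over 1.5 times, and 5 of these crossed 1, among them an upstream piece of *Cd3e* (0.794 to 1.39) and a piece of *Notch1* (0.670 to 1.19), both with joined peaks. Another 28 crossed 1 with a smaller move.

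No paired analysis was possible because each genotype had 1 library and the results come from no test. Differences of cell preparation, clone, depth and peak calling cannot be separated from the deletion. The depth and the caller's threshold are unknown, and what they limit was not tested. The lists hold no signal outside called peaks.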
